A study of Mus musculus with 10 samples.

Results

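The 10 genes described here are markers of macrophages and other leukocytes: Cd14, Lyz2, Cd53, Laptm5, Adgre1, Lsp1, Tyrobp, Fcer1g, Ctss and Cd68. Their probe sets were found by gene symbol in the platform's probe annotation, which gave 12 of the 22690 probe sets on the array, and 10 of the 12393 genes that a probe set names alone. Laptm5 had 3 probe sets and each other gene had 1. The arrays measured RNA from primary mouse embryonic fibroblasts (MEFs), connective tissue cells grown out of whole embryos, in a study of how the Swi/Snf chromatin remodelling complex acts on gene expression. The design has 3 genotypes. Brg1-/- cells (4 arrays) lack the ATPase subunit encoded by Smarca4, Snf5-/- cells (3 arrays) lack the core subunit encoded by Smarcb1, and wild type (WT) cells (3 arrays) are the controls. All 3 groups came from E13.5 embryos of a mixed C57BL/6 and 129 background, and the labels give for all of them, WT included, a retrovirus carrying Cre and selection with puromycin at 2.5 ug/ml. The labels do not say which embryo or culture each array came from. The p-values therefore measure the spread between these arrays, which may be technical, and the number of arrays limits the precision.

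Macrophages carry surface receptors that sense microbial products, adapter proteins that pass receptor signals to kinases, and a large lysosomal compartment in which engulfed material is digested. Leukocytes make far more of these products than fibroblasts do, which is why they serve as markers, and cultures grown out of whole embryos can hold tissue macrophages beside the fibroblasts. In RNA from a mixed culture, fewer cells of a type and less RNA per cell cannot be told apart, and that holds for every value given here.

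The deposited values are MAS5 intensities on a linear scale. The array medians ran from 145.6 to 233.65, and the brightest Bacillus subtilis control probe set, taken as the background of an array, ran from 26.7 to 57.4. Of the 12 probe sets, 11 lay above that background on all 10 arrays. Intensities of different probe sets are not comparable with each other, so levels are set only against other arrays of the same probe set. The targeted genes followed the labels. Smarca4 ran from 387 to 607 in Brg1-/- cells and from 2275 to 3829 in WT cells, and Smarcb1 ran from 279.4 to 331 in Snf5-/- cells and from 844.3 to 1119 in WT cells.

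Of the 10 genes, Lsp1 was the one that differed between the genotypes past the test, and it did so in opposite directions in the mutants. It rose in Snf5-/- cells and fell in Brg1-/- cells. The other 9 genes, which include the receptors, adapters and lysosomal proteins of macrophages, passed in no comparison. Of these, Adgre1 lay above all other arrays in every Snf5-/- array and Cd53 lay below every WT array in every Brg1-/- array, without passing. Snf5-/- replicate 2 held the highest value of nearly all of the 9.

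A gene was counted as changed when limma gave a Benjamini-Hochberg adjusted p below 0.05 over all 22626 tested probe sets, both after quantile normalization of the arrays and on the deposited scale. By this rule 1 of the 12 probe sets, that of Lsp1, was called in each of the 3 comparisons. Over all tested probe sets the same rule called 6.1% for Snf5-/- against WT, 9.13% for Brg1-/- against WT and 0.663% for Brg1-/- against Snf5-/-. On the quantile-normalized scale alone the share of all probe sets was 9.48%, 14.9% and 1.86% in the same order, and the members called were unchanged. The groups did not overlap on that scale for 2 of the 12 probe sets in each comparison. Those were Lsp1 and Adgre1 for Snf5-/- against WT (27.7% of all probe sets), Lsp1 and Cd53 for Brg1-/- against WT (28.1%), and Lsp1 and Adgre1 for Brg1-/- against Snf5-/- (13.9%). Counts of 1 and 2 in 12 are too small to set these genes apart from the array as a whole. The comparisons with WT share the same 3 WT arrays.

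**Figure D1:**
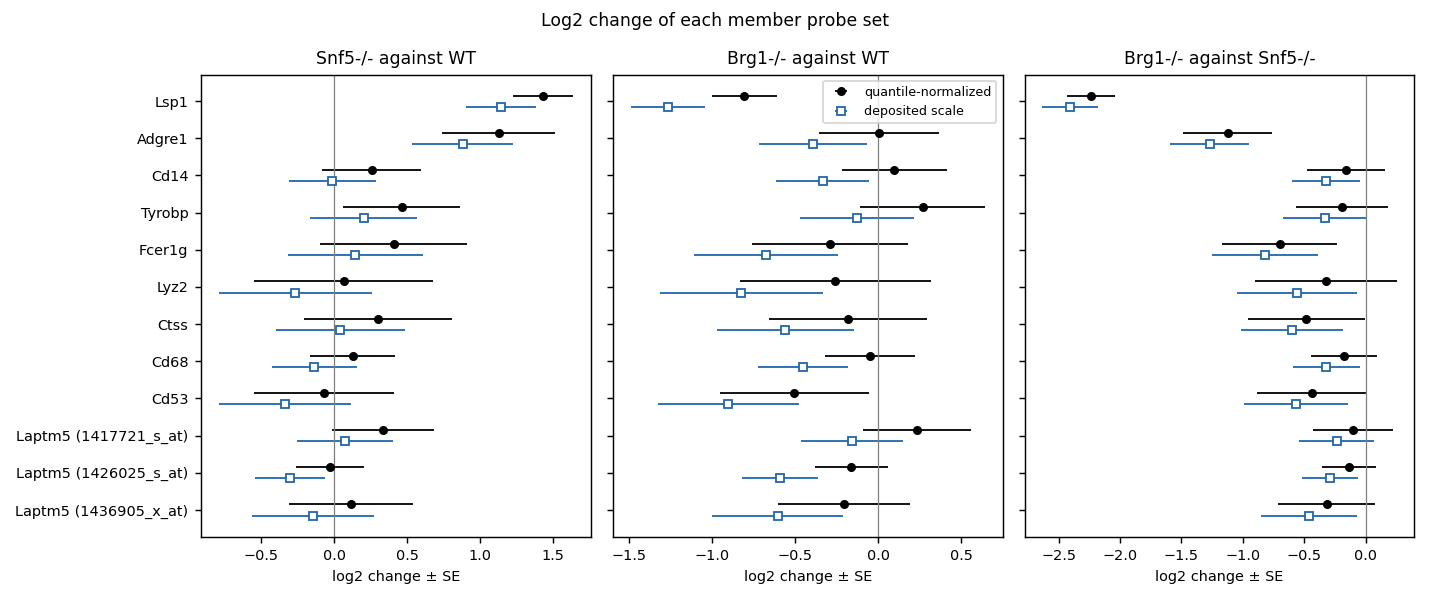
Log2 change ± SE of each of the 12 member probe sets in the 3 comparisons, after quantile normalization (filled circles) and on the deposited scale (open squares). Lsp1 lies to the right of 0 at 1.43 for Snf5-/- against WT and to the left at -0.80 for Brg1-/- against WT, while the other 11 probe sets lie nearer to 0 or have wide errors.

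Lsp1 (probe set 1417756_a_at) encodes lymphocyte-specific protein 1, an F-actin-binding protein of the cytoskeleton in white blood cells. It had intensities of 244.8, 311, 374.6 and 398.5 in Brg1-/- cells, 2325, 1548.1 and 1443.9 in Snf5-/- cells, and 1011.4, 771.1 and 618.6 in WT cells. Every Snf5-/- array lay above every WT array, and every Brg1-/- array lay below every WT array. Lsp1 averaged 332.2 ± 69 in Brg1-/- cells (SD, n = 4), 1772 ± 481 in Snf5-/- cells (n = 3) and 800.4 ± 198 in WT cells (n = 3).

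After quantile normalization, Lsp1 rose 2.70-fold in Snf5-/- cells against WT, a log2 change of 1.43 ± 0.21 (SE, limma adjusted p = 0.00132). It fell 1.75-fold in Brg1-/- cells against WT, a log2 change of -0.80 ± 0.19 (limma adjusted p = 0.0147). Between the mutants the difference was 4.71-fold, a log2 change of -2.24 ± 0.19 for Brg1-/- against Snf5-/- (limma adjusted p = 0.000337). On the deposited scale the log2 changes were 1.14, -1.26 and -2.41 in the same order, with limma adjusted p of 0.00893, 0.00120 and 0.000241. Of 20 alternatives, the fall in Brg1-/- cells missed the threshold in 3: without WT replicate 1 (limma adjusted p = 0.0591), without WT replicate 2 (0.0587) and with no intensity trend in the variance (0.0561). Lsp1 passed in all 20 for the other comparisons.

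**Figure D2:**
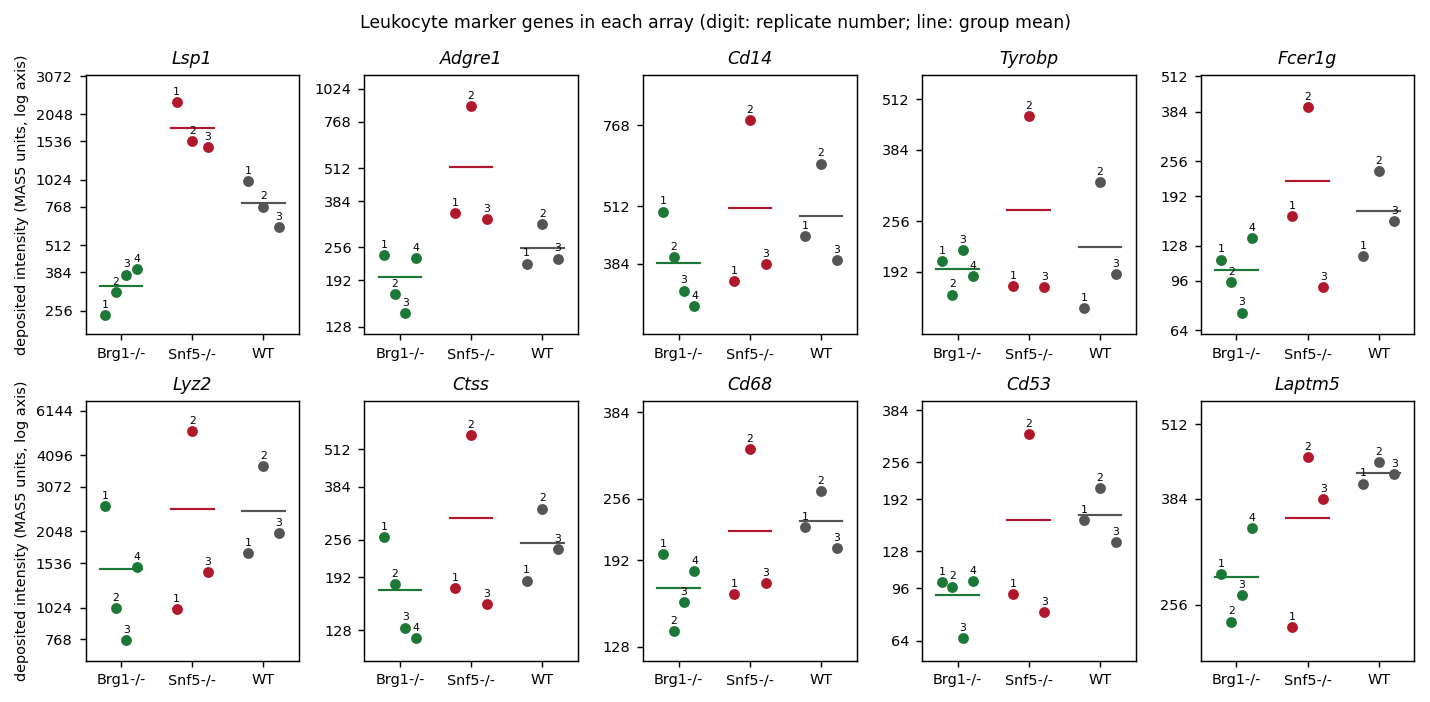
Deposited intensity (MAS5 units, log axis) of the 10 genes in each array, with replicate numbers beside the points and a line at each group mean. Laptm5 is drawn for probe set 1426025_s_at. For Lsp1 the 3 groups are separate, with Snf5-/- at 1444 to 2325, while for most of the other genes the single high point is Snf5-/- replicate 2.

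Adgre1 (1451161_a_at) encodes F4/80, an adhesion receptor that is a defining surface marker of mouse macrophages. Its intensities were 240, 170.7, 144 and 233.3 in Brg1-/- cells, 346, 884 and 328.6 in Snf5-/- cells, and 222, 313.5 and 231.9 in WT cells. All 3 Snf5-/- arrays lay above every array of the other groups, replicate 2 far above the other two, and the Brg1-/- and WT arrays overlapped. The log2 change in Snf5-/- cells against WT was 1.13 ± 0.39 and did not pass the test (limma adjusted p = 0.0939). It was 0.62 without Snf5-/- replicate 2 (limma adjusted p = 0.235) and 1.46 without Snf5-/- replicate 3, where it passed (limma adjusted p = 0.0449). The change was 0.01 ± 0.36 for Brg1-/- against WT and -1.12 ± 0.36 for Brg1-/- against Snf5-/- (limma adjusted p = 0.995 and 0.141).

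Cd14 (1417268_at) encodes the co-receptor that hands bacterial lipopolysaccharide to the Toll-like receptor Tlr4. It had 498.9, 397.2, 335.7 and 310.4 in Brg1-/- cells, 351.5, 788.7 and 383.4 in Snf5-/- cells, and 440.3, 634.1 and 391 in WT cells. The groups overlapped, with replicate 2 the highest array in both Snf5-/- and WT cells and replicate 1 the highest in Brg1-/- cells. The log2 change was 0.26 ± 0.34 for Snf5-/- against WT and 0.10 ± 0.32 for Brg1-/- against WT, and on the deposited scale the values were -0.01 and -0.33. The direction for Cd14 thus depends on the scale.

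Tyrobp and Fcer1g encode adapters with an immunoreceptor tyrosine-based activation motif, which couple receptors without signalling tails to the kinase Syk. Tyrobp (1450792_at), also called DAP12, had 204.5, 168.6, 217.7 and 187.7 in Brg1-/- cells, 176.9, 465.3 and 175.8 in Snf5-/- cells, and 156.2, 319.6 and 189.4 in WT cells. Fcer1g (1418340_at), the shared gamma chain of Fc receptors, had 114.4, 95.1, 74.1 and 135.9 in Brg1-/- cells, 162.8, 398.6 and 91 in Snf5-/- cells, and 117.5, 235.8 and 157.1 in WT cells. For both adapters the groups overlapped, and replicate 2 was the highest array of Snf5-/- and of WT cells. The log2 change of Tyrobp was 0.46 ± 0.40 for Snf5-/- against WT and 0.27 ± 0.37 for Brg1-/- against WT. That of Fcer1g was 0.41 ± 0.50 and -0.29 ± 0.47. Without Snf5-/- replicate 2 the Snf5-/- changes were -0.05 for Tyrobp and -0.20 for Fcer1g.

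Lyz2, Cd68 and Ctss encode proteins of macrophage lysosomes and granules. Lyz2 (1423547_at), a lysozyme that cuts bacterial cell walls, had 2574.8, 1022.4, 763.3 and 1480.7 in Brg1-/- cells, 1006.8, 5091.6 and 1412.8 in Snf5-/- cells, and 1679.2, 3709.8 and 2019.9 in WT cells. It varied most within a genotype: the highest array was 3.37 times the lowest in Brg1-/- cells, 5.06 times in Snf5-/- cells and 2.21 times in WT cells. Its log2 change was 0.07 ± 0.61 for Snf5-/- against WT and -0.26 ± 0.58 for Brg1-/- against WT, with the widest errors of the 12 probe sets.

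Cd68 (1449164_at), a heavily glycosylated lysosomal membrane protein, had 197.4, 137.6, 157.9 and 182.4 in Brg1-/- cells, 163.5, 323.2 and 172.5 in Snf5-/- cells, and 224.3, 264.9 and 203 in WT cells. On the deposited scale every Brg1-/- array lay below every WT array, but after quantile normalization the groups overlapped. Its log2 change for Brg1-/- against WT was -0.46 on the deposited scale and -0.05 ± 0.27 after normalization. Ctss (1448591_at), cathepsin S, a cysteine protease that processes antigen for MHC class II, had 260.9, 182.7, 130.8 and 120.7 in Brg1-/- cells, 177.2, 571.2 and 156.4 in Snf5-/- cells, and 187.3, 324.7 and 238.5 in WT cells. The groups overlapped, and Snf5-/- replicate 2 again stood highest for Cd68 and Ctss. The log2 change for Snf5-/- against WT was 0.13 ± 0.29 for Cd68 and 0.30 ± 0.51 for Ctss, and -0.23 and -0.34 without Snf5-/- replicate 2.

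Cd53 and Laptm5 are membrane proteins found across blood cells. Cd53 (1448617_at), a tetraspanin, had 100.6, 97.4, 65.1 and 101.5 in Brg1-/- cells, 91.7, 318.1 and 80 in Snf5-/- cells, and 162.9, 210.1 and 137.3 in WT cells. Every Brg1-/- array lay below every WT array on both scales, and so did Snf5-/- replicates 1 and 3, while Snf5-/- replicate 2 lay above all of them. The log2 change for Brg1-/- against WT was -0.51 ± 0.45 after normalization and -0.90 ± 0.42 on the deposited scale, and neither passed (limma adjusted p = 0.537 and 0.130). On the deposited scale without Snf5-/- replicate 2, an alternative chosen after the data were seen, it was -0.90 and passed (limma adjusted p = 0.0401). That array is no part of this comparison and enters it only through the spread that the genotypes share in the fit.

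Laptm5 encodes a lysosomal transmembrane protein of blood cells and was the only member with several probe sets. The brightest, 1426025_s_at, had 287.6, 239.7, 265.3 and 343.7 in Brg1-/- cells, 234.5, 451.4 and 384.1 in Snf5-/- cells, and 407.3, 442.1 and 423 in WT cells. On the deposited scale every Brg1-/- array lay below every WT array for that probe set, with a log2 change of -0.59 that did not pass (limma adjusted p = 0.0679), and after normalization the groups overlapped at -0.16 ± 0.22. The other probe sets overlapped on both scales. Probe set 1417721_s_at had 207.1, 157.3, 142.4 and 158.8 in Brg1-/- cells, 209.5, 271.6 and 128.2 in Snf5-/- cells, and 168.9, 267.2 and 137.8 in WT cells. Probe set 1436905_x_at had 70.8, 80.1, 41.8 and 73.9 in Brg1-/- cells, 58.8, 136.8 and 87.8 in Snf5-/- cells, and 76.8, 138.6 and 89.5 in WT cells. Their log2 changes for Brg1-/- against WT were 0.23 ± 0.33 and -0.20 ± 0.40, so the 3 probe sets did not share a direction. The suffixes of all 3 mark probe sets that can bind transcripts of more than 1 gene.

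Over the 11 probe sets other than Lsp1, the log2 change for Snf5-/- against WT ran from -0.07 to 1.13 with a median of 0.26, and 9 were positive. Without Snf5-/- replicate 2 it ran from -0.73 to 0.62 with a median of -0.22, and 9 were negative. For Brg1-/- against WT it ran from -0.51 to 0.27 with a median of -0.16, and on the deposited scale all 11 were negative with a median of -0.56. The median of all probe sets on the deposited scale was -0.45 for that comparison, and 0.00 after normalization. Most of the deposited fall of these 11 was thus shared with the whole array. For Brg1-/- against Snf5-/- all 11 were negative, from -1.12 to -0.11, and without Snf5-/- replicate 2 the number of positive values was 9. At an unadjusted p below 0.05, limma gave 1 of the 11 for Snf5-/- against WT, 0 for Brg1-/- against WT and 1 for Brg1-/- against Snf5-/-, after normalization.

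Single arrays stood out for many of the members. Snf5-/- replicate 2 was the highest of all 10 arrays for 10 of the 12 probe sets on the deposited scale and for 11 after normalization. Of all probe sets above background, 9.39% were highest in that array after normalization. The exceptions on the deposited scale were Lsp1, highest in Snf5-/- replicate 1, and Laptm5 probe set 1436905_x_at, highest in WT replicate 2. Within the WT group replicate 2 was the highest for 11 of the 12 probe sets, against 16.4% of all probe sets on the deposited scale, and for 10 after normalization, against 30.2%. Within the Brg1-/- group replicate 1 was the highest for 6 on the deposited scale and 8 after normalization, against 15.7% and 25.9% of all probe sets.

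The summed intensity of the 9 genes other than Lsp1 was 4479, 2511, 2154 and 3096 in Brg1-/- cells, 2711, 9292 and 3185 in Snf5-/- cells, and 3597, 6455 and 3991 in WT cells. Snf5-/- replicate 2 and WT replicate 2 had the highest sums of all, and the other Snf5-/- arrays lay within the range of the Brg1-/- arrays. The sum is led by Lyz2, and without Lyz2 it was 1904, 1489, 1391 and 1616 in Brg1-/- cells, 1704, 4201 and 1772 in Snf5-/- cells, and 1918, 2745 and 1971 in WT cells, with the same high arrays. For the 11 probe sets the median ratio of the highest to the lowest array of a genotype was 1.61 in Brg1-/- cells, 2.65 in Snf5-/- cells and 1.73 in WT cells. Over all probe sets above background it was 1.47, 1.48 and 1.5 in the same order. For Lsp1 that ratio was 1.63, 1.61 and 1.63, and Lsp1 was highest in Brg1-/- replicate 4, Snf5-/- replicate 1 and WT replicate 1.

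The profile of Lsp1 was also set against those of the other members. Each gene was centred on its mean log2 level over the 10 arrays and set against the mean profile of the other 9 members. The root mean square difference was 0.95 for Lsp1 and ran from 0.25 for Cd68 to 0.50 for Lyz2 among the others. It grows with the range of a gene's own profile, and Lsp1 had the largest SD of its own profile, 1.01. The values of Lsp1 used here are those that gave its calls. Without Lsp1, the mean centred log2 level was 0.26, -0.18, -0.55 and -0.17 in Brg1-/- cells, -0.17, 1.30 and -0.36 in Snf5-/- cells, and -0.48, 0.41 and -0.06 in WT cells, after normalization. Laptm5, at 0.40, differed from the mean of the others by more than the SD of its own profile, 0.29.

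Among 10492 other genes above background in at least 3 arrays, 10 were nearest in profile to the mean of the 10 members, 4 of them on the list of other myeloid markers (Cybb, Csf1r, Ms4a7 and Msr1). The nearest was Cybb, the catalytic subunit of the phagocyte NADPH oxidase, at a root mean square difference of 0.19, followed by Csf1r, the receptor for the macrophage growth factor, at 0.20. The others of the nearest 10 were Ms4a6b, Birc3, Ms4a7, Irgm1, Cxcl16, Ctsc, Ms4a6c and Msr1, at 0.22 to 0.28. Msr1 is a macrophage scavenger receptor, Cxcl16 a chemokine, Irgm1 an interferon-induced GTPase, Birc3 an inhibitor of apoptosis and Ctsc cathepsin C. The median difference over all candidates was 0.60. All of these profiles share the same 10 arrays, and the value in Snf5-/- replicate 2 is their main feature.

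**Figure D3:**
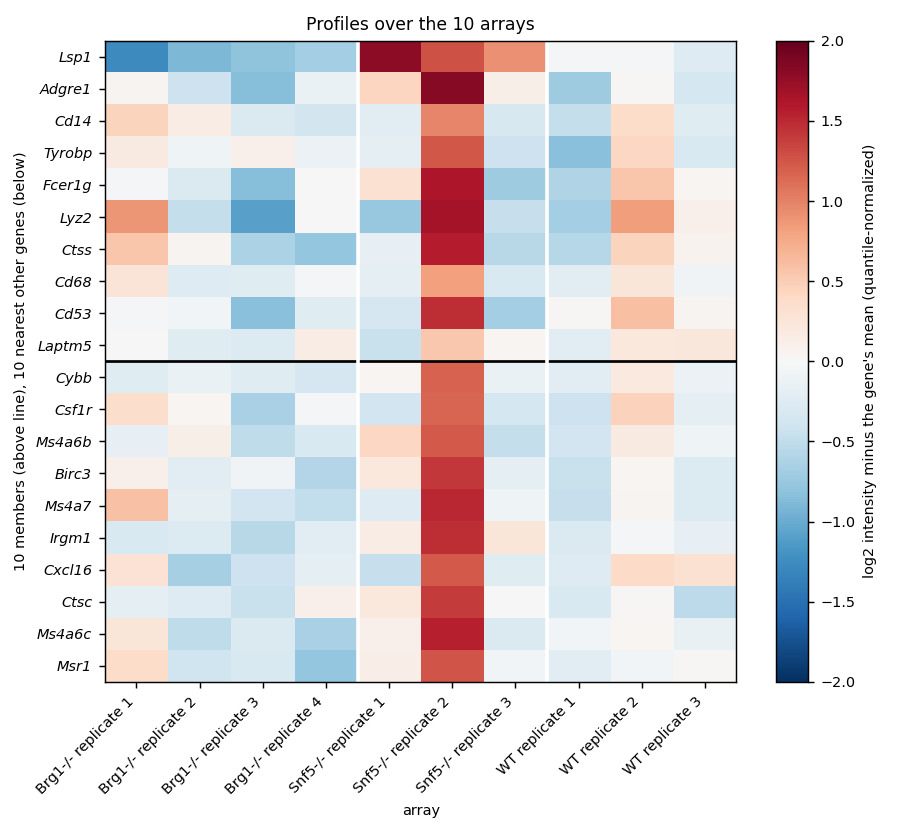
Log2 intensity of the 10 members (above the line) and of the 10 nearest other genes (below it), each minus its mean over the arrays, after quantile normalization. Snf5-/- replicate 2 is the reddest column for every row but Lsp1, which is red in all 3 Snf5-/- arrays and blue in all 4 Brg1-/- arrays.

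Each member was also matched to its own nearest gene. Csf1r was nearest to Cd14 (0.18) and to Cd53 (0.27), Lyz1 to Lyz2 (0.12), Cd47 to Laptm5 (0.11), Irgm1 to Adgre1 (0.26) and Alox5ap to Tyrobp (0.28). Ms4a6b was nearest to Fcer1g (0.28), Ms4a7 to Ctss (0.27), Sphk1 to Cd68 (0.14) and Grb14 to Lsp1 (0.37). Lyz1 and Lyz2 are close copies, so their probe sets could share signal, and the level of Lyz2 is uncertain for that reason. Lsp1 had the most distant neighbour of the 10 members, but its difference from candidates in general was also the largest. The median over all candidates was 1.01 for Lsp1, and ran from 0.43 for Laptm5 to 0.90 for Lyz2 among the others. The distance alone therefore does not set Lsp1 apart.

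Promoters of the members were read where the reference held them, not by how alike the members varied. RefSeq's promoter table (build GRCm38.p6) held 6 of the 10 members, Cd53, Cd68, Ctss, Fcer1g, Laptm5 and Lyz2. It did not list Tyrobp, Lsp1, Adgre1 and Cd14. The 250 bases before each start were searched on both strands for GAGGAA, the core bound by the myeloid factor PU.1, and for the interferon-stimulated response element, searched as GAAANNGAAA, which share no overlapping match in these windows. The PU.1 core was found in 4 of the 6 member windows and in 23.3% of all 32851 windows, and the response element in 1 of the 6, Ctss, and in 2.98% of all. In the windows below, written 5′ to 3′ on the gene's strand, capitals mark the matches.
Cd53, chr3:106790150-106790399, minus strand: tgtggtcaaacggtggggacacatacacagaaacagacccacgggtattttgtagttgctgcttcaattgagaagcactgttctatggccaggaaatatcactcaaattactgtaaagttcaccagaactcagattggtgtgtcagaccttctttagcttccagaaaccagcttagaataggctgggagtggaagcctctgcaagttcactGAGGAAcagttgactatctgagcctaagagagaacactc
Cd68, chr11:69666171-69666420, minus strand: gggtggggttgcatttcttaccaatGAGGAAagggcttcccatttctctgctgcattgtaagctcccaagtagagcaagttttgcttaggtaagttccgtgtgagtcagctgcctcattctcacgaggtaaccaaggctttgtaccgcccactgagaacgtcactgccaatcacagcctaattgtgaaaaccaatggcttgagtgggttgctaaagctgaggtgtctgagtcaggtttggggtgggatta
Ctss, chr3:95526536-95526785, plus strand: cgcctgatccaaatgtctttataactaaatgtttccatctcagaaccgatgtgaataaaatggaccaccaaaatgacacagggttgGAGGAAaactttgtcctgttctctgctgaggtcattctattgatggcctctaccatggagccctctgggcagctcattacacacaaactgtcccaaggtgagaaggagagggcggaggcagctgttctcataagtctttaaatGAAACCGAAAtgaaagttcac
The PU.1 core began at position -39 in Cd53, -225 in Cd68 and -164 in Ctss, counted from the start, and a match on the opposite strand lay at -38 in Laptm5. The windows of Fcer1g and Lyz2 held no match, and these and that of Laptm5 are not printed. A match describes the letters of a window and is not a measured binding site.

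Other myeloid markers moved with the same arrays. Of 63 measured genes of a list of 67, 50 lay above background in at least 3 arrays, and 33 of those 50 were highest in Snf5-/- replicate 2. The mean centred log2 level of the 50 was 0.32, -0.26, -0.34 and 0.01 in Brg1-/- cells, -0.16, 1.01 and -0.11 in Snf5-/- cells, and -0.34, 0.08 and -0.22 in WT cells. Csf1r had 503.7, 398.9, 284.5 and 421.5 in Brg1-/- cells, 341, 957 and 405.2 in Snf5-/- cells, and 498.3, 728.8 and 436.1 in WT cells. It was highest in Snf5-/- replicate 2 and, among the WT arrays, in WT replicate 2, as most of the members were. Csf1r is among the genes picked above for a profile near that of the members, so this likeness is no separate evidence. Other genes of the list went the other way. Cd37 (13.9) and Fgr (98.5) had their lowest intensity of all arrays in Snf5-/- replicate 2.

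Some defining markers lay at or near background. The macrophage receptor Cd163 and the blood cell genes Cd48, Vav1 and Hcls1 were above background in 0 of 10 arrays, and Itgam, the integrin of macrophages and neutrophils, in 2. Ptprc, the common leukocyte antigen, was above it in 7. Marco, a scavenger receptor, and Ccl3, a chemokine, were above it only in Snf5-/- replicate 2, at 169.7 and 354.3. The summed intensity of the list ran from 4824 to 6287 in Brg1-/- cells, 5328 to 12710 in Snf5-/- cells and 9695 to 11151 in WT cells, and in WT cells it was led by Gpnmb.

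In the test, 1 of the 63 rose and 1 fell in Snf5-/- cells against WT on both scales, where 6.1% of all probe sets were called. C1qb, a subunit of complement C1q, rose by a log2 change of 1.85 ± 0.40 (limma adjusted p = 0.0138), and Gpnmb, a transmembrane glycoprotein, fell by 2.52 ± 0.20 (limma adjusted p = 3.47e-05). Without Snf5-/- replicate 2 the deposited call of C1qb was lost (limma adjusted p = 0.087). For Brg1-/- against WT with all arrays, C1qb passed after normalization only (limma adjusted p = 0.0266, and 0.0610 deposited) and C1qc on neither scale. Both passed on both scales without Snf5-/- replicate 2, with log2 changes of 1.40 and 1.59 after normalization (limma adjusted p = 0.0126 and 0.00703). That array is no part of this comparison and enters it only through the shared spread and the normalization. Its removal on the deposited scale was chosen after the data were seen. In Brg1-/- cells Gpnmb fell by 2.78 ± 0.19 (limma adjusted p = 5.12e-06). Between the mutants limma called 0 of the 63 after normalization, where 1.86% of all probe sets were called, with 3 at an unadjusted p below 0.05. The median log2 change of the 63 was 0.44 for Snf5-/- against WT and 0.13 without Snf5-/- replicate 2, against -0.01 for all probe sets.

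Markers of other blood cells were less high in Snf5-/- replicate 2 than the 1.30 of the 9 members. The mean centred log2 level there was 0.04 for 10 T and NK cell markers, -0.42 for 10 B cell markers, 0.16 for 5 neutrophil markers and 0.39 for 5 mast cell markers above background. The neutrophil markers were nevertheless highest in the same array of each genotype as the 9 members, with 0.18, 0.01, -0.27 and -0.20 in Brg1-/- cells, -0.09, 0.16 and -0.48 in Snf5-/- cells, and 0.09, 0.53 and 0.06 in WT cells. In the WT group the T and NK cell markers (0.27) and B cell markers (0.35) were also highest in replicate 2. The lists of T and NK cell, B cell and mast cell markers and of MHC class II genes held 44 measured genes. Of these, limma called 0 in any comparison on both scales, and 0 on the quantile-normalized scale alone. Over all probe sets both scales called 6.1% for Snf5-/- against WT, 9.13% for Brg1-/- against WT and 0.663% for Brg1-/- against Snf5-/-. At an unadjusted p below 0.05 limma gave 3, 4 and 3 of the 44 in the same order. The share of all probe sets at that looser threshold is not given here, so these 3 counts have no background beside them. Above background on all 10 arrays were 3 of 16 T and NK cell, 4 of 10 B cell, 1 of 9 mast cell and 3 of 9 MHC class II genes. The count of 0 therefore says little about these cell types. The neutrophil protein S100a8 fell in Snf5-/- cells, where it ran from 4.3 to 26.1 and lay below background on every array, against 57 to 210.9 in WT cells (limma adjusted p = 0.027), so the size of its fall is uncertain. Of 12 measured erythroid and platelet markers, the platelet chemokine Ppbp fell by 2.31 ± 0.46 (SE, log2) in Brg1-/- cells against WT (limma adjusted p = 0.0054), and its log2 change was -2.04 ± 0.46 for Brg1-/- against Snf5-/- (limma adjusted p = 0.0468). All 14 fibroblast markers lay above background on all 10 arrays. Their mean centred log2 level was -0.60, -0.08, -0.04 and 0.16 in Brg1-/- cells, 0.17, 0.20 and 0.38 in Snf5-/- cells, and -0.19, 0.0032 and -0.0020 in WT cells. That mean hides single markers that passed on both scales. Against WT, Col3a1 rose by 1.84 ± 0.24 and S100a4 fell by 1.41 ± 0.33 in Snf5-/- cells (limma adjusted p = 0.000625 and 0.0193). In Brg1-/- cells S100a4 fell by 2.42 ± 0.31 and Pdgfrb by 0.84 ± 0.16 (limma adjusted p = 0.000299 and 0.00439). Col1a1, Col1a2 and Pdgfrb were lower in Brg1-/- than in Snf5-/- cells. Brg1-/- replicate 1, the highest of its group for the 9 members at 0.26, was the lowest of all 10 arrays for the fibroblast markers.

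Interferon-induced genes were high in Snf5-/- replicate 2 as well, though not there alone. Of 18 measured genes, 16 were highest in that array. Their mean centred log2 level was -0.09, 0.01, -0.12 and 0.18 in Brg1-/- cells, 0.34, 2.32 and 1.41 in Snf5-/- cells, and -1.47, -1.38 and -1.20 in WT cells. In Snf5-/- cells against WT 14 of the 18 rose on both scales, and 12 without Snf5-/- replicate 2. In Brg1-/- cells 6 rose. With all arrays, 6.1% of all probe sets for Snf5-/- and 9.13% for Brg1-/- against WT were called in either direction. Snf5-/- replicate 3 was thus high for interferon-induced genes and low for the leukocyte markers, at -0.36. Whether the leukocyte signal had a part in the interferon values of Snf5-/- replicate 2 was not tested.

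**Figure D4:**
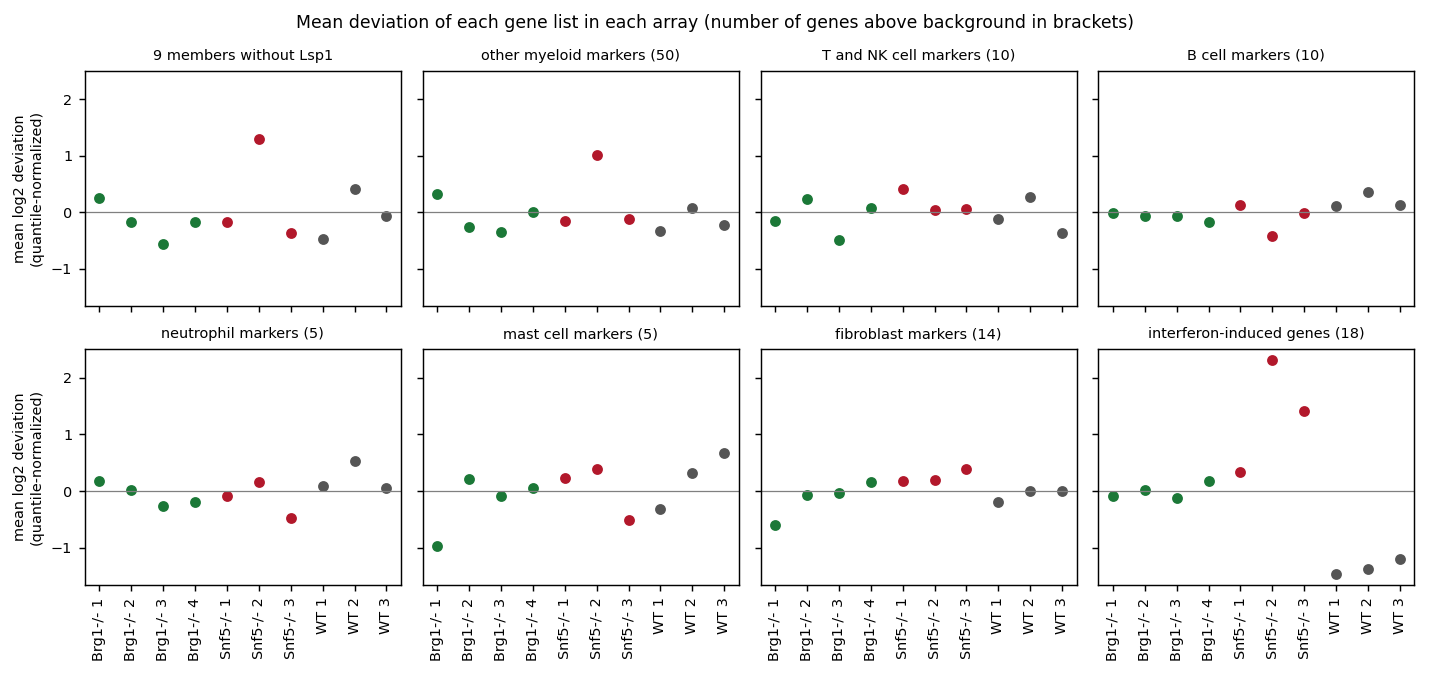
Mean log2 deviation from the mean of all 10 arrays for 8 gene lists, one point per array, in green for Brg1-/-, red for Snf5-/- and grey for WT. The 9 members without Lsp1 and the other myeloid markers peak in Snf5-/- replicate 2 at 1.30 and 1.01, T and NK, B cell, neutrophil and mast cell markers do not, and interferon-induced genes are higher in all 3 Snf5-/- arrays than in WT.

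The pathways in which the members act were read from 3 further lists. Of 10 measured genes of the lipopolysaccharide receptor pathway, in which Cd14 works, Tlr4 fell by 1.12 ± 0.31 (SE, log2) in Snf5-/- cells against WT (limma adjusted p = 0.0393). For Brg1-/- against WT 0 passed on both scales, with 3 at an unadjusted p below 0.05. Over all probe sets the shares called were 6.1% and 9.13% in the same order. Without Snf5-/- replicate 2 the log2 change of Tlr4 was -1.20 and missed the threshold after normalization (limma adjusted p = 0.0534, and 0.0441 on the deposited scale). Myd88, the adapter of Toll-like receptors, had a log2 change of 0.66 ± 0.12 in Snf5-/- cells, which passed after normalization only (limma adjusted p = 0.00471, and 0.165 deposited). Ly96, the partner of Tlr4, had a log2 change of -0.65 ± 0.25 in Brg1-/- cells, which passed on the deposited scale only (limma adjusted p = 0.114 after normalization, 0.00985 deposited). The same held there for Tlr4, at -0.73 ± 0.29 (0.115 and 0.0179), and for Irak1, at -0.30 ± 0.18 (0.307 and 0.00628). Deposited intensities of Tlr4 ran from 95.5 to 133 in Brg1-/- cells and from 199.8 to 267.9 in WT cells.

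Of 15 measured genes of the adapter pathway, in which Tyrobp and Fcer1g work, 1 fell in Snf5-/- cells and 2 fell in Brg1-/- cells against WT, where 6.1% and 9.13% of all probe sets were called. The mean centred log2 level of the 12 above background was highest in Snf5-/- replicate 2, at 0.48. The signalling scaffold Blnk fell by 1.41 ± 0.28 in Snf5-/- cells and by 1.25 ± 0.26 in Brg1-/- cells against WT (limma adjusted p = 0.00802 and 0.00643). The phospholipase Plcg2 fell by 0.74 ± 0.17 in Brg1-/- cells (limma adjusted p = 0.0124). Blnk and Plcg2 were higher in WT cells than in Snf5-/- replicate 2, and Blnk ran from 70.8 to 121.5 in Brg1-/- cells, 69 to 130 in Snf5-/- cells and 268.2 to 356.3 in WT cells.

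Some other lysosomal genes fell in Brg1-/- cells. Of 20 measured lysosomal proteases and membrane proteins, 7 fell in Brg1-/- cells against WT on both scales and 1 fell in Snf5-/- cells, against 9.13% and 6.1% of all probe sets called in either direction. Ctsk, cathepsin K, fell by 2.64 ± 0.22 in Brg1-/- cells and by 2.16 ± 0.23 in Snf5-/- cells (limma adjusted p = 1.57e-05 and 0.000184). Ctsd, cathepsin D, fell by 0.80 ± 0.12 in Brg1-/- cells, and Gusb, a lysosomal glycosidase, by 0.64 ± 0.12 (limma adjusted p = 0.000723 and 0.00406). Ctsl, Lgmn, Ctsa and Npc2 fell by 0.35 to 0.49. The median log2 change of the 20 was -0.28 for Brg1-/- against WT and -0.12 for Snf5-/- against WT. That the lysosomal list and the lysosomal members differ in response was not tested.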

How the data were processed

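RNA from MEFs was hybridised to 10 single-colour Affymetrix arrays with 22690 probe sets. The deposited intensities are linear MAS5 signals, 1 value per probe set and array, made with MAS5 per the submitters' processing notes; its version, scaling target and filters are not given in the sources used here. MAS5 signals of dim probe sets are noisy, and array medians differed, which bears on every comparison of deposited values.

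Probe sets were named from the platform's probe annotation, in which 20380 of the 22626 probe sets other than controls had 1 gene symbol, 691 had several and 1555 had none; no member probe set had several. The 64 control probe sets were left out. Intensities were quantile-normalized and log2-transformed with no pseudocount and no filter, and fitted with limma 3.58.1 (R 4.3.3) over all 10 arrays in one model with 7 residual degrees of freedom, an intensity trend and two-sided tests adjusted by Benjamini-Hochberg over all probe sets. The fit was tested on simulated data with changes placed in probe sets of below-median spread. That test does not bear on genes with a wide spread between arrays. Where a gene had several probe sets, the one with the highest mean log2 value stood for it in lists and profiles. Gene lists were described by counts, medians, mean levels in each array and summed intensities, with no test of a list. Genes were named by adjusted p, up to 4 in a list, or because they passed. Some myeloid genes were named for their level against background or for their values in single arrays. Not every gene that passed is named. The endothelial list is not described above, though Tek passed in both mutants and Kdr in Brg1-/- cells against WT. The nearest genes were ranked by root mean square difference of centred log2 profiles.

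Alternatives were the deposited scale, median scaling, a filter at the 40th percentile in at least 3 arrays, log2(value + 32), 1 probe set per gene, no trend, array weights, fits of only the groups compared, a replicate block and leaving out each array. The members and lists were chosen with earlier results of these data known. The correlation of deviations between same-numbered arrays ran from -0.02 to 0.03 over 9 pairs. For the members, same-numbered arrays did coincide in 2 of the groups on the deposited scale. Replicate 2 was the highest of its group for 11 of the 12 probe sets in Snf5-/- cells and for 11 in WT cells. In Brg1-/- cells it was the highest for 1. The cause was not tested.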

Additional observations from a re-analysis of the deposited data

Results flagged for a closer look

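The intensity of Cd53 in Brg1-/- replicate 3 was 65.1, far below the other 3 arrays of its group, whose lowest value was 97.4. The gap was 0.887 of the range of the 4 arrays, above Dixon's critical ratio for 4 values. It was the 1 case found among 24 sets of 4 values examined for the Brg1-/- group on both scales, and chance alone marks about 1 set in 20. Brg1-/- replicate 3 was also the lowest of all 10 arrays for 5 of the 12 member probe sets.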

How the results depend on the processing

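The 20 alternatives gave 711 further values for the members, of which 635 kept their direction and their side of the threshold, 71 changed sign, 2 came past the threshold and 3 lost it. Every change of sign was in a gene that did not pass. The 3 losses were those of Lsp1 for Brg1-/- against WT, and the number of members called there was 0 with no intensity trend, 0 to 1 with an array left out, and 2 on the deposited scale without Snf5-/- replicate 2, an alternative chosen after the data were seen. For Snf5-/- against WT it was 1 to 2 with an array left out. Over all probe sets, Snf5-/- against WT had 2144 calls, against 1379 with 1 probe set per gene, 1127 with no trend and 1087 to 2208 with an array left out. Brg1-/- against WT had 3366, against 6187 on the deposited scale, 2175 with 1 probe set per gene, 6297 on the deposited scale without Snf5-/- replicate 2, and 2187 to 3645 with an array left out. Brg1-/- against Snf5-/- had 421, against 177 on the deposited scale, 44 with no trend, 109 with only those groups fitted, 91 on the deposited scale without Snf5-/- replicate 2, and 87 to 597 with an array left out. Among the fits with an array left out, the lowest counts were those without WT replicate 3 (1087 and 2187) and without Brg1-/- replicate 3 (87). The cause was not tested. With a replicate block the counts were 2033, 3022 and 471, the calls of Lsp1 were kept, and the sign turned for Adgre1 (-0.061) and Ctss (0.0101) in Brg1-/- against WT. On the deposited scale the log2 change turned in Snf5-/- against WT for Cd14 (-0.013), Lyz2 (-0.27), Laptm5 1436905_x_at (-0.14) and Cd68 (-0.13), and in Brg1-/- against WT for Cd14 (-0.33), Laptm5 1417721_s_at (-0.16), Adgre1 (-0.39) and Tyrobp (-0.13), these last 4 also without Snf5-/- replicate 2. On the deposited scale without that array, Snf5-/- against WT turned for Cd14 (-0.38), Lyz2 (-0.96), Laptm5 1417721_s_at (-0.17) and 1436905_x_at (-0.45), Tyrobp (-0.26), Fcer1g (-0.42), Ctss (-0.55) and Cd68 (-0.45), and Brg1-/- against Snf5-/- for Cd14 (0.046), Lyz2 (0.14), Cd53 (0.067), Laptm5 1417721_s_at (0.0076) and Tyrobp (0.14). Median scaling turned Lyz2 in Snf5-/- against WT (-0.0048), and array weights turned Lyz2 (-0.20) and Laptm5 1436905_x_at (-0.049) there and Cd14 (-0.0017) and Adgre1 (-0.15) in Brg1-/- against WT. With an array left out, the log2 changes that turned ran as follows. For Snf5-/- against WT they were Cd14 -0.16 to 0.50, Lyz2 -0.69 to 0.52, Cd53 -0.73 to 0.35, Laptm5 1426025_s_at -0.28 to 0.21, Laptm5 1436905_x_at -0.22 to 0.40, Tyrobp -0.051 to 0.79, Fcer1g -0.20 to 0.96, Ctss -0.34 to 0.72, Cd68 -0.23 to 0.34. For Brg1-/- against WT they were Cd14 -0.079 to 0.34, Lyz2 -0.64 to 0.12, Laptm5 1436905_x_at -0.42 to 0.055, Adgre1 -0.18 to 0.19, Tyrobp -0.031 to 0.60, Ctss -0.45 to 0.052, Cd68 -0.16 to 0.083. For Brg1-/- against Snf5-/- they were Cd14 -0.39 to 0.26, Lyz2 -0.77 to 0.43, Cd53 -0.85 to 0.22, Laptm5 1417721_s_at -0.47 to 0.17, Laptm5 1426025_s_at -0.38 to 0.11, Laptm5 1436905_x_at -0.60 to 0.019, Tyrobp -0.51 to 0.32, Ctss -0.90 to 0.16, Cd68 -0.39 to 0.18. One member probe set, Laptm5 1436905_x_at, lay above background on 9 of the 10 arrays, and the values near background limit what can be read of Cd53, Fcer1g and that probe set.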

Other observations

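Because Lsp1 was the member that passed in every comparison, its nearest genes on the chromosome were read, a choice made after the values of Lsp1 were seen. Igf2, a fetal growth factor expressed from the paternal copy, averaged 11679 in Brg1-/- cells, 18591 in Snf5-/- cells and 13231 in WT cells, and rose by a log2 change of 0.75 ± 0.08 in Snf5-/- cells against WT (limma adjusted p = 0.000246, and 0.0434 on the deposited scale). Its log2 change for Brg1-/- against WT was 0.28 ± 0.08 after normalization, opposite in sign to that of Lsp1, and passed on that scale only (limma adjusted p = 0.0335, and 0.371 deposited). For Brg1-/- against Snf5-/- it was -0.47 ± 0.08 and passed on both scales (limma adjusted p = 0.0154 and 0.0412). Ctsd, the lysosomal protease on the other side, averaged 6979 in Brg1-/- cells, 11488 in Snf5-/- cells and 16912 in WT cells, and its fall in Brg1-/- cells is given above. Mrpl23, a mitochondrial ribosomal protein gene between Lsp1 and Igf2, averaged 753 in Brg1-/- cells, 893.9 in Snf5-/- cells and 919.6 in WT cells and did not pass in any comparison. The muscle troponin genes Tnni2 and Tnnt3 lay above background in 4 and 3 of the 10 arrays. Syt8, on the same side as Ctsd, lay above background in 8. Its log2 change for Snf5-/- against WT was -1.52 ± 0.47, opposite in sign to that of Lsp1. That change passed on the deposited scale only (limma adjusted p = 0.0655 after normalization, 0.0428 deposited).

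C1qa, of complement C1q, was high in Brg1-/- replicate 1 as well as in Snf5-/- replicate 2. C1qa had 235.7, 86.9, 10.5 and 84.8 in Brg1-/- cells, 26.6, 709 and 17.1 in Snf5-/- cells, and 27.7, 10 and 12.9 in WT cells. C1qa thus did not share the high value of WT replicate 2 seen for Lyz2, Cd14 and Tyrobp. It lay above background in 5 of the 10 arrays, and WT replicate 2, with a background of 28.1, was not among them. C1qc had 193.7, 143.8, 86.5 and 173.7 in Brg1-/- cells, 101.9, 488.5 and 103.8 in Snf5-/- cells, and 68.5, 53.4 and 70 in WT cells. Every array of both mutants lay above every WT array. After normalization, 27.7% of all probe sets did not overlap for Snf5-/- against WT and 28.1% for Brg1-/- against WT. The log2 change of C1qc for Snf5-/- against WT was 1.73 ± 0.56 and did not pass (limma adjusted p = 0.0784). It was 0.94 without Snf5-/- replicate 2 (limma adjusted p = 0.172). For Brg1-/- against WT it was 1.58 ± 0.53 and did not pass with all arrays (limma adjusted p = 0.0657). It passed without Snf5-/- replicate 2 (limma adjusted p = 0.00703), an array that is no part of this comparison.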
